A study of Rattus norvegicus with 53 samples.

Results

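Cd68 and Lilrb3a are the pair of genes described here, 2 of the 32576 genes measured in whole eyes of Heterogeneous Stock (HS) rats. They were taken by name and position as genes of the myeloid lineage. Both stand in the study's list of cis-eQTL genes from these same eyes, without which they could not have been named in the table. HS rats are an outbred population derived from inbred strains. The study sequenced polyA RNA of 53 eyes, 1 per rat, after the muscles outside the eye had been removed, and the authors removed 2 eyes that matched no genotype. The 51 eyes analysed here form 1 group, of which 40 kept their label and 11 were relabelled by the authors after a genotype match. Part of the study's rats had self-administered nicotine in a larger behavioral project. Which of these eyes, if any, came from such rats is not given in the labels. The age and sex behind each eye are not given there either.

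Myeloid cells of the eye include the microglia of the retina and the macrophages of the uvea, the connective tissues and the vessels. Cd68 encodes macrosialin, a heavily glycosylated membrane protein of late endosomes and lysosomes that is abundant in macrophages and other phagocytes and serves as a common marker of them. Lilrb3a belongs to the leukocyte immunoglobulin-like receptor family, whose inhibitory members carry tyrosine motifs in the cytoplasmic tail that recruit phosphatases and dampen activating signals, and which in rodents are also called paired immunoglobulin-like receptors. A whole eye mixes retina, lens, cornea and vascular tissue, so in these bulk samples fewer myeloid cells and less RNA per myeloid cell cannot be told apart.

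In the deposited table, Cd68 (ENSRNOG00000037563) has its start at position 56270640 of chromosome 10 and Lilrb3a (ENSRNOG00000053260) at position 63759638 of chromosome 1, both in Rnor_6.0. The bases just upstream of the 2 genes are shown because both genes are read as markers of one lineage. They come from RefSeq on another build, GRCr8, and each window holds the 250 bases before the gene start, written 5′ to 3′ on the strand of the gene. RefSeq lists Lilrb3a as a synonym of Pirb, and the Lilrb3a window is that of Pirb. Capitals mark matches on either strand to GAGGAA, the PU box, the core bound by the myeloid transcription factor PU.1.
Cd68, chr10:54882442-54882691, minus strand: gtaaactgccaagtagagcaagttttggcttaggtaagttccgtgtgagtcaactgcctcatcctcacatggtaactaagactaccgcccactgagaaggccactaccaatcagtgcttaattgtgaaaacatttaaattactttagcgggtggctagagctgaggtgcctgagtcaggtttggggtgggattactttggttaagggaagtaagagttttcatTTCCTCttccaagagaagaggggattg
Lilrb3a, chr1:74414306-74414555, plus strand: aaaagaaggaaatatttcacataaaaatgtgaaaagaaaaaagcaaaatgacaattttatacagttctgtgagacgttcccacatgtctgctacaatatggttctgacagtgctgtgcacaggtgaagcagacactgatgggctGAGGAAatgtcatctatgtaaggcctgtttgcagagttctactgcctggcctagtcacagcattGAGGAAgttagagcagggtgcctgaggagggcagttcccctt
The Cd68 window holds 1 match to the PU box, on the opposite strand, starting 27 bases before the gene start. The Lilrb3a window holds 2, starting 106 and 42 bases before it. Of 33469 upstream windows of this length in RefSeq, 23.3% hold at least 1 match and 3.39% at least 2. The AP-1 site TGAGTCA, searched on both strands, occurs 2 times in the Cd68 window, starting 205 and 80 bases before the gene start, and in none of the Lilrb3a window. It is found in 4.05% of all windows, and 2 or more times in 0.117%. The E-box CACGTG occurs in neither window, against 5.59% of all. None of these matches overlap, and each is a description of letters in the sequence and not a bound site.

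Values are given as CPM, that is expected fragment counts scaled to a total of 1000000 in every eye. They are not divided by transcript length, so the level of Cd68 is not compared with that of Lilrb3a. The total per eye ran from 9109084 to 42146827 expected counts. Genes of the retina showed that the libraries hold the labelled tissue: Guca1b, a photoreceptor activator of guanylate cyclase, ran from 360 to 898 CPM over the 51 eyes, and Crb1, a polarity gene of photoreceptors and Müller glia, from 117 to 300 CPM (lowest and highest eye).

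Cd68 was detected in 50 of 51 eyes, at levels that differed widely between rats. The lowest eye above 0 had 0.537 CPM, the median eye 2.23 CPM and the highest eye 15.5 CPM, with a mean of 3.87 CPM ± 3.48 (SD, n = 51). The quartiles were 1.47 and 5.41 CPM, a ratio of 3.67. Most eyes thus lay low, with a tail upward: 9 eyes were under 1 CPM, 15 reached 5 CPM and 5 reached 10 CPM, and the 3 highest eyes had 15.5, 12.0 and 10.9 CPM. On the scale of log2(CPM + 1) the mean was 1.96 and the SD 0.96. The values are small as counts. The highest eye held 193 counts, and its exact 95% Poisson interval ran from 13.4 to 17.8 CPM. The median eye held 41 counts (1.60 to 3.03 CPM) and the eye of lowest CPM above 0 held 8 counts (0.232 to 1.06 CPM). These intervals cover counting error only. The spread between eyes exceeded that error, since the variance of the Cd68 counts was 50.5 times the Poisson variance expected at 1 rate for all eyes. The SD of Cd68 was also above that of 92.5% of the 200 genes nearest to it in median CPM, whose median SD was 0.52 on the log2 scale.

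In 1 eye Cd68 was at 0. That eye had a total of 16810127 expected counts, close to the median total of the others at 16180922, and a count of 0 there allows a level of up to 0.178 CPM, reckoned at 3 counts. The same eye held 9 counts of Lilrb3a, which is 0.535 CPM, and 604 CPM of Vamp2. The widest gap between neighbouring eyes in the order of Cd68 was the one between this eye and the next, 0.62 on the log2 scale. The remaining 50 eyes had no gap as wide.

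Lilrb3a was close to the detection limit. It was at 0 in 12 eyes and above 0 in 39. Among the latter the lowest had 0.0545 CPM, a single count with an exact 95% Poisson interval of 0.00138 to 0.304 CPM. Over all 51 eyes the median was 0.429 CPM, the quartiles 0.107 and 0.880 CPM, and the mean 0.566 CPM ± 0.534 (SD, n = 51). The highest eye had 1.87 CPM from 79 counts (1.48 to 2.34 CPM), and the next were at 1.79 and 1.54 CPM. In all, 11 eyes reached 1 CPM and 32 held fewer than 10 counts. The 12 eyes at 0 had totals from 9109084 to 23740267, with a median of 16363366 against 16168367 in the others, and a count of 0 allows up to 0.126 to 0.329 CPM in them. At 1 common rate of 0.618 CPM, Poisson counting would leave 0.00994 eyes at 0, and the variance of the counts was 9.35 times that expectation. Such a spread was not unusual for genes this low. The SD of 0.47 on the log2 scale exceeded that of 73% of the 200 genes nearest in median CPM (median SD 0.43), which had a median of 9 eyes at 0. In 8 eyes the Lilrb3a count was more than 0.01 from a whole number, whereas Cd68 was within 0.01 of a whole number in every eye. RSEM, the tool that made the counts, divides fragments that fit several genes, and the family has close relatives, so the assignment of fragments to Lilrb3a is uncertain.

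**Figure D1:**
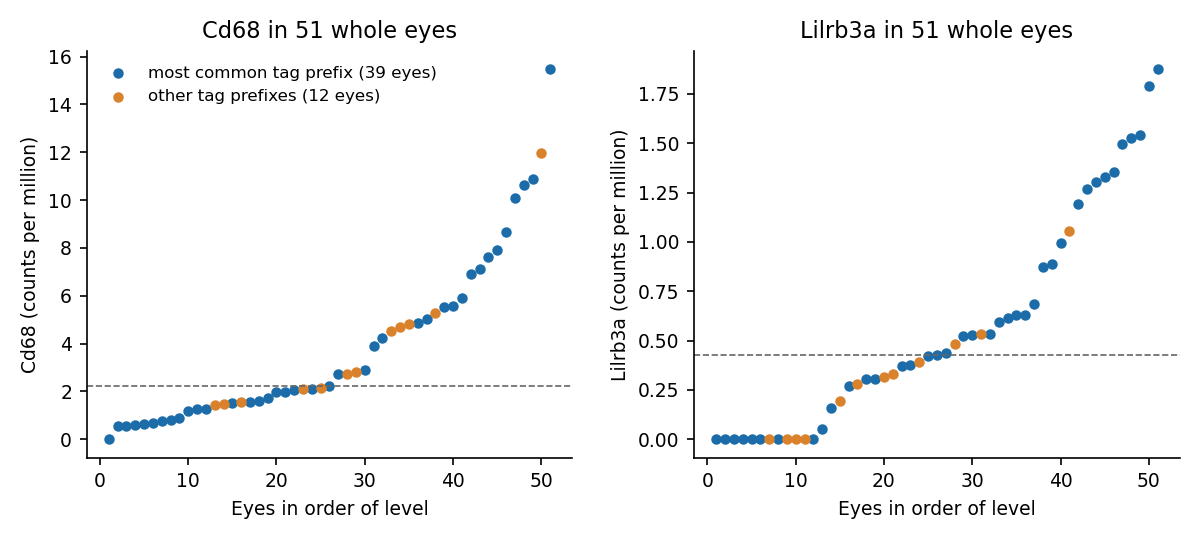
Level of Cd68 (left) and Lilrb3a (right) in CPM on a linear scale in each of the 51 eyes, ordered from the lowest to the highest within each gene, with blue points for the commonest tag prefix (39 eyes), orange points for the other 12, and a dashed line at the median. Cd68 rises to 15.5 CPM from a median of 2.23, and Lilrb3a begins with 12 eyes at 0 and ends at 1.87 CPM.

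The plot of ordered levels separates eyes by the first characters of the rat's tag, the one split that the sample names offer, and what the tag prefix stands for is not given in the labels. The commonest prefix is that of 39 eyes, and the other 12, which carry several prefixes, were pooled. Cd68 had a median of 2.11 CPM (0 to 15.5) in the 39 eyes with the commonest prefix and of 2.78 CPM (1.45 to 12.0) in the other 12. Its log2 level differed by -0.15 (SE 0.32) for the common prefix minus the other prefixes, with an adjusted p of 0.886 in limma. Lilrb3a had a median of 0.527 CPM with 8 eyes at 0 under the common prefix, and of 0.298 CPM with 4 eyes at 0 under the others. Its difference of 0.30 (SE 0.15) had an unadjusted p of 0.0470 in limma, or 0.368 after adjustment over 20190 genes. Of these genes 11 (0.0545%) passed after adjustment and 2663 (13.2%) had an unadjusted p under 0.05. The ranges of the 2 sets of eyes overlapped for both genes. Between relabelled and other eyes, limma gave a log2 difference of -0.22 (SE 0.32) for Cd68 and -0.12 (SE 0.16) for Lilrb3a, both with an adjusted p of 0.954. In that comparison 0 of 20190 genes (0%) passed and 1070 (5.3%) had an unadjusted p under 0.05. All tests here are two-sided.

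The levels of Cd68 and Lilrb3a showed no detectable relation to each other across eyes. Pearson's r of the log2 levels was 0.07 (permutation p = 0.626, n = 51) and Spearman's rho was 0.06 (permutation p = 0.689). Leaving out the 2 eyes most distant from the Cd68 median gave an r of 0.12. In eyes of the commonest tag prefix r was 0.06 (n = 39), and in the pooled others it was 0.36 (n = 12). The 5 eyes that reached 10 CPM of Cd68 had, from the highest down, 0.160, 0.393, 0.306, 1.33 and 1.53 CPM of Lilrb3a. The first 3 of these lay below the Lilrb3a median of 0.429 and the other two were among its higher values. The 3 eyes with the highest Lilrb3a had 2.11, 5.93 and 0.803 CPM of Cd68. With 38 eyes in which both genes were above 0, r was -0.03 (permutation p = 0.873). What size of relation could have been detected at these counts was not tested.

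**Figure D2:**
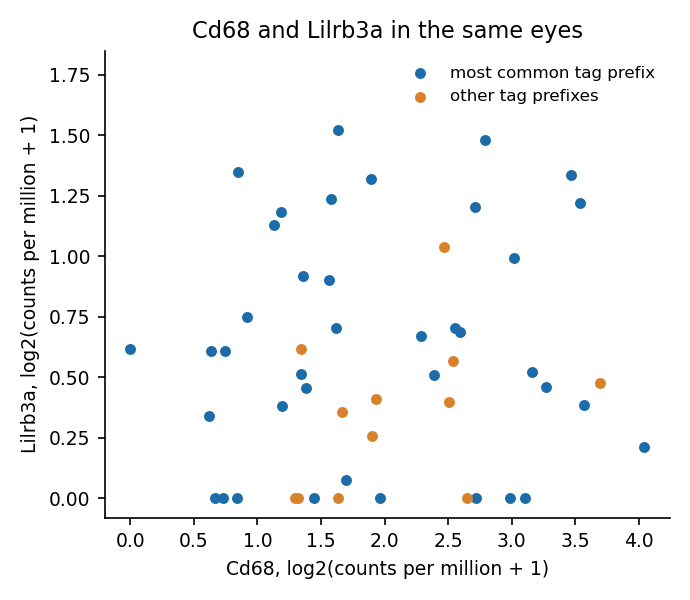
Cd68 (horizontal) against Lilrb3a (vertical) in the same 51 eyes, both as log2(CPM + 1), with blue points for the most common tag prefix and orange points for the others. The points show no trend (r = 0.07), and the 12 eyes at 0 for Lilrb3a are spread from low to high Cd68.

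The scatter of the pair shows eyes high in one gene at many levels of the other, and the next comparison asked which other genes followed either one. The level of each gene with a median of at least 1 CPM was fitted on the level of Cd68 or Lilrb3a with limma. For Cd68, 0 of 13843 genes (0%) passed an adjusted p of 0.05, the smallest adjusted p being 0.251, and 1570 (11.3%) had an unadjusted p under 0.05, of which 1380 had a positive r and 190 a negative one. This split depended on the scaling. With median-of-ratios scaling 811 genes had an unadjusted p under 0.05, 500 positive and 311 negative, and the median r over all genes was 0.00 in place of 0.09. Over all 20189 other genes above 0 in any eye, limma called 0 against Cd68 and 1896 (9.39%) had an unadjusted p under 0.05. For Lilrb3a, 0 of 13844 genes (0%) passed, 323 (2.33%) had an unadjusted p under 0.05, 227 positive and 96 negative, and the smallest adjusted p was 0.9999. Over the 20189 genes it was again 0, with 545 (2.7%) at an unadjusted p under 0.05.

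**Figure D3:**
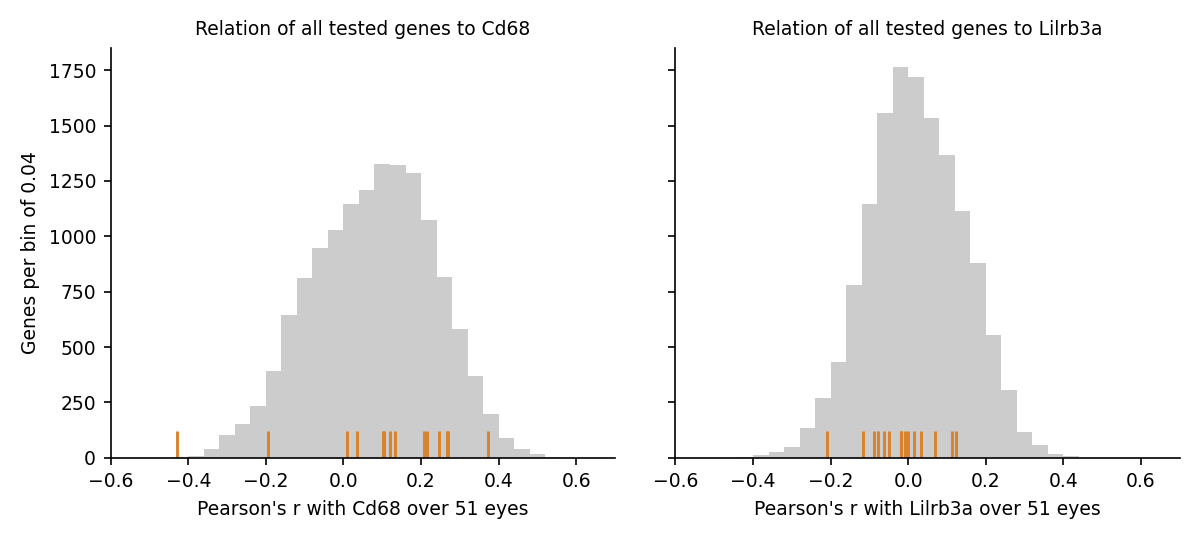
Histograms of Pearson's r over 51 eyes between each tested gene and Cd68 or Lilrb3a, with r on the horizontal axis and the number of genes per bin on the vertical axis, and with orange lines at the tested genes of the myeloid list. The values for Cd68 are centred above 0, at a median of 0.09, and those for Lilrb3a near 0, at 0.02.

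The files do not pair gene identifiers with names, and only genes in the study's supplementary list of cis-eQTL genes (genes whose expression was associated with a nearby variant in these same eyes) could be named. Among these, the largest r with Cd68 was that of Rufy1, an endosomal trafficking gene on chromosome 10, at 0.52. Next came Ankk1, a kinase gene, at 0.49, and Slc35e4, a solute carrier gene, at 0.45. The others of the 10 with the largest r, all between 0.39 and 0.44, were Plekhh2, the flavin monooxygenase gene Fmo5, Mycbpap, the transcription factor gene Klf16, Nrbp1, the adhesion gene Nectin2 and Hpse, which encodes the heparan sulfate-degrading enzyme heparanase. Their adjusted p in limma lay between 0.251 and 0.314, so none passed. At the other end stood Nlrp1a at -0.43 and Vamp2 at -0.38, both described with the neighbours of Cd68, followed at -0.31 to -0.25 by the mitochondrial ribosome gene Mrps35, Ccpg1os, Txndc17, Sh3bgr, Slc66a2, Ndrg1, the nicotinic receptor subunit gene Chrna5 and Rxylt1. Of all genes, the 3 closest to Cd68 could not be named. The first starts at position 55712043 of chromosome 10, 558597 bases from the Cd68 start, and had an r of 0.55 with an adjusted p of 0.251 in limma. The other two start at 72005581 on chromosome 18 (r = 0.53) and at 147823232 on chromosome 5 (r = 0.52).

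With Lilrb3a, named genes of large positive r included AABR07002674.1 (0.37), the axon guidance gene Sema3e (0.36) and the phosphatase gene Ptprr (0.34). Ppm1k, Adgrf5, Pmepa1, Cyb5b, Spock2 and the tight junction gene Cldn16 had 0.33 to 0.29. Negative values included those of AABR07019209.1 (-0.40), Tsen34 (-0.34) and Calr3 (-0.33). Serinc2, LOC103690108, the proteoglycan gene Sdc4, Fgd3 and Hpse had -0.32 to -0.27. Each of these genes had an adjusted p of 0.9999 in limma. Hpse was thus on opposite sides of the 2 genes, at 0.39 with Cd68 and -0.27 with Lilrb3a, and neither value passed. The 3 closest of all genes, none of which could be named, start at 195623549 on chromosome 2 (r = 0.45), 78893271 on chromosome 1 (0.42) and 56180089 on chromosome 18 (0.42).

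Other genes of myeloid cells did not rise with either gene by this test. Of 43 myeloid genes listed, 19 could be named. Tested against Cd68 were 14, of which 0 passed and 3 had an unadjusted p under 0.05 in limma. These 3 were the tumor necrosis factor receptor gene Tnfrsf1a (r = 0.37), the inflammasome adaptor gene Pycard (0.27) and Nlrp1a (-0.43). Of the 14, 12 had a positive r, with a median of 0.13, where 68.5% of all tested genes were positive and their median was 0.09. With 20 expression components as covariates, described below, 8 of the 14 were positive and their median was 0.03. Of all tested genes 50.2% were then positive, with a median of 0.00. In that fit 1 of the 14, Nlrp1a, passed in the negative direction. Tlr2, a receptor for bacterial lipoproteins, was at 0.21, Cd14, a lipopolysaccharide co-receptor, at 0.13, Sirpa, an inhibitory receptor that binds Cd47, at 0.10, and Spp1, which encodes osteopontin, at -0.19. Against Lilrb3a 15 were tested, Cd68 included, of which 0 passed, 0 had an unadjusted p under 0.05 and 5 had a positive r, where 55.4% of all tested genes were positive. Their median was -0.02 against 0.02 over all genes, from Cd14 at -0.21 to Tlr2 at 0.12. Among the tested genes, Cd14 ran from 3.15 to 15.4 CPM with a median of 8.67, and Tlr2 from 0 to 8.88 CPM with a median of 3.57 and 1 eye at 0. Other named genes of the list were too low to be tested. Of these, the chemokine gene Ccl9 (at 0 in 6 eyes) had an r of 0.37 with Lilrb3a and 0.09 with Cd68, the matrix protease gene Mmp9 (at 0 in 11) 0.13 and -0.22, and the leukotriene receptor gene Cysltr2 (at 0 in 28) -0.05 and 0.05. Many defining markers, among them Csf1r, Aif1, Ptprc, Cx3cr1 and Adgre1, could not be named and are not analysed here.

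Of the 17 lysosome genes listed, 10 could be named and tested, and 0 passed against either gene. All 10 had a positive r with Cd68, but only from 0.00 for the protease inhibitor gene Cst3 to 0.21 for the cathepsin gene Ctsf, and their median of 0.10 lay near that of all genes (0.09). With Lilrb3a 2 of the 10 were positive, against 55.4% of all genes, and the median was -0.05. Of 12 antigen presentation genes listed, 9 could be named and 7 tested, all 7 of them class I genes of the rat major histocompatibility complex, and 0 passed against either gene. All 7 had a positive r with Cd68 (median 0.18, 0.09 to 0.29), against 68.5% of all genes with a median of 0.09. With 20 components 6 of the 7 were positive, their median was 0.09 and RT1-A1 was at -0.11. Without components RT1-CE5 had the highest, with an unadjusted p of 0.0340 and an adjusted p of 0.418 in limma. With Lilrb3a 5 of 7 were positive, against 55.4% of all genes, and the median was 0.12 against 0.02. The class II genes RT1-Ba and RT1-Bb were too low to be tested, at 0 in 29 and 6 eyes. The class I genes are near copies of each other, so their counts are uncertain.

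Lists for other cell types could be followed through few genes, with 0 passing in limma against either gene. The neutrophil and epithelial gene Lcn2 had an r of 0.16 with Cd68 and 0.00 with Lilrb3a. The B cell gene Fcrl1 had 0.02 and 0.06. The globin gene Hbb, a sign of red blood cells, had 0.15 and 0.26, and 0.22 and 0.32 with 20 components. Another globin gene, Hba-a3, was too low to be tested (at 0 in 19 eyes) and had 0.01 and 0.35. Of 6 tested eye tissue genes, Guca1b had 0.03 and -0.04, Crb1 0.06 and -0.05, and the keratocyte gene Lum -0.01 and -0.23. Over the 6, r ran from -0.01 to 0.21 for Cd68 and from -0.23 to -0.04 for Lilrb3a. Whether the cell mixture had a part in the levels of either gene was not tested.

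The levels of both genes were also set against 4 measures of each library. The largest r was that between Cd68 and the percent of counts taken by the 10 highest genes, at -0.33 (permutation p = 0.0176, adjusted p = 0.158 over 9 relations, n = 51). Spearman's rho was -0.27 (permutation p = 0.0567, adjusted p = 0.437). With the 2 eyes most distant in that percent left out r was -0.33. It was -0.34 in eyes of the commonest tag prefix and -0.54 in the pooled others. The other relations, to total count, mitochondrial share and number of genes above 0, had r between -0.18 and 0.20 and an adjusted permutation p of 0.297. The r of 0.20 between total count and Lilrb3a turned to -0.06 once the 2 eyes of most distant total were left out.

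The genes that lie next to Cd68 and Lilrb3a on the chromosome were examined in turn. Both could be named only through the study's list of genes associated with a nearby variant, so the pair was not chosen independently of its surroundings. Within 0.5 Mb of Cd68 the table has 70 other gene starts, of which 48 passed the filter and none could be named. In limma 0 of the 48 passed, and 8 (16.7%) had an unadjusted p under 0.05, against 11.3% of all genes. Within 1 Mb of Cd68, 18 of 79 (22.8%) did. Within 0.5 Mb of Lilrb3a, 10 of 25 starts passed the filter, 0 passed the test and 1 (10%) had an unadjusted p under 0.05, against 2.33% of all genes.

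Principal components of expression, which hold variation shared by many genes, were then added to the fit as covariates. The authors used 20 such components as covariates in their own eQTL analysis. The components held 47.6% of the variance of Cd68 and 28.8% of that of Lilrb3a. With them, limma called 2 of 13843 genes (0.0144%) against Cd68, both in the negative direction and both on chromosome 10, Nlrp1a and Vamp2. Unadjusted, 715 genes (5.17%) had a p under 0.05, 363 positive and 352 negative. Against Lilrb3a 0 of 13844 passed, and 695 (5.02%) had an unadjusted p under 0.05.

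Vamp2 encodes synaptobrevin, the SNARE protein of synaptic vesicles, and starts at position 55675575, 595065 bases from Cd68. It was high in every eye, from 339 to 750 CPM with a median of 466. Its r with Cd68 was -0.38 (permutation p = 0.00604) and its rho -0.39 (permutation p = 0.00508), with an adjusted p of 0.332 in limma. Without the 2 eyes farthest from the Cd68 median r was -0.41. It was -0.42 in eyes of the commonest tag prefix and -0.21 in the pooled others. With 20 components r became -0.70 and rho -0.73. The limma slope was then -0.13 log2 units of Vamp2 per log2 unit of Cd68 (SE 0.02, adjusted p = 0.0308, 29 residual degrees of freedom). Without the 2 eyes whose Cd68 was then farthest from its median, this r was -0.67. It was -0.67 in eyes of the commonest prefix and -0.83 in the pooled others. In single eyes, the one without Cd68 had 604 CPM of Vamp2 and the one with the most Cd68 had 437.4 CPM, but the eye second in Cd68 had 501 CPM, above the median. The eye lowest in Vamp2 had 5.28 CPM of Cd68 and the highest 1.72 CPM.

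Nlrp1a encodes a cytosolic sensor that assembles an inflammasome and activates caspase-1 in macrophages. It starts at position 57822498, 1551858 bases from Cd68. The gene was at 0 in 1 eye and at 0.0607 CPM in the next, had a median of 2.10 CPM and reached 5.51 CPM. Its r with Cd68 was -0.43 (permutation p = 0.00166) and its rho -0.40 (permutation p = 0.00392), with an adjusted p of 0.270 in limma. Without the 2 eyes farthest from the Cd68 median r was -0.41, and no eye was left out for its Nlrp1a level. In eyes of the commonest tag prefix r was -0.51, and in the pooled others -0.18. With 20 components r became -0.72 and rho -0.69, at a slope of -0.44 (SE 0.08, adjusted p = 0.0268 in limma). Without the 2 eyes whose Cd68 was then farthest from its median, this r was -0.65. It was -0.69 in eyes of the commonest prefix and -0.87 in the pooled others. The eye without Nlrp1a had 10.6 CPM of Cd68 and the eye with the most Nlrp1a had 0.786 CPM, whereas the eye with the most Cd68 had 0.722 CPM of Nlrp1a. The eye without Cd68 had 1.84 CPM of Nlrp1a and the eye second in Cd68 had 1.77 CPM, both a little below its median.

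Neither call held under every setting. With 5 or 10 components in place of 20, choices made after the data had been seen, limma called Vamp2 alone (1 of 13843 genes, 0.00722%). With 5 components 600 genes (4.33%) had an unadjusted p under 0.05 against Cd68, and 523 (3.78%) against Lilrb3a, where 0 passed. With 20 components and a pseudocount of 0.1 CPM, both genes had an adjusted p of 0.157, and with all genes above 0 in any eye the adjusted p was 0.0529 for Nlrp1a and 0.0788 for Vamp2. Leaving out the eye without Cd68 gave 0.0138 for Nlrp1a and 0.0690 for Vamp2, and leaving out the 3 deepest eyes gave 0.0429 and 0.0631. The value of r stayed between -0.75 and -0.66 for both genes in these fits with 20 components. Cd68, Vamp2 and Nlrp1a all stand in the study's list of cis-eQTL genes, which was made from the same eyes with components as covariates, and genotypes were not used here.

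**Figure D4:**
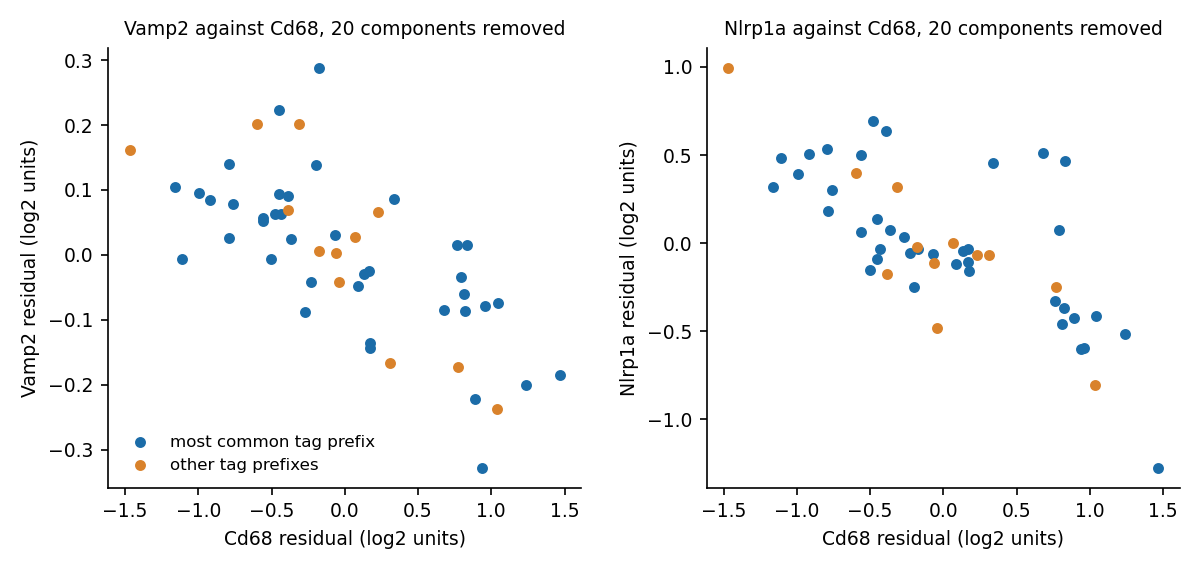
Vamp2 (left) and Nlrp1a (right) on the vertical axis against Cd68 on the horizontal axis, as the log2 units left in each of 51 eyes after 20 expression components were removed, with blue points for the commonest tag prefix and orange points for the others. Eyes with more Cd68 have less of both genes, with r of -0.70 and -0.72.

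The plot of the 2 partners shows a fall in eyes of the commonest tag prefix and in the others. The partners were picked in these same eyes, so the fall in each part is not an independent check. The plot of r along the chromosome places the partners among the other neighbours. Within 1 Mb the other named gene was Pfas, of purine synthesis, whose r with Cd68 was 0.19 and became -0.14 with 20 components. Rabep1, an endosomal Rab5 effector gene 1191807 bases away, went from 0.02 to 0.50, and Txndc17, farther along at position 58776792, from -0.29 to -0.55. Neither passed. The unnamed gene at 55712043 had 0.61 after 20 components, with an adjusted p of 0.679 in limma, and another unnamed gene, 58749 bases from Cd68, had 0.60. Of the 79 tested genes within 1 Mb, 16 (20.3%) had an unadjusted p under 0.05 with 20 components, 7 positive and 9 negative, against 5.17% of all genes. For Lilrb3a this held for 3 of 10 (30%) within 0.5 Mb and 4 of 15 (26.7%) within 1 Mb, against 5.02% of all genes, and 0 passed after adjustment in limma. Neighbouring genes are not independent of each other.

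**Figure D5:**
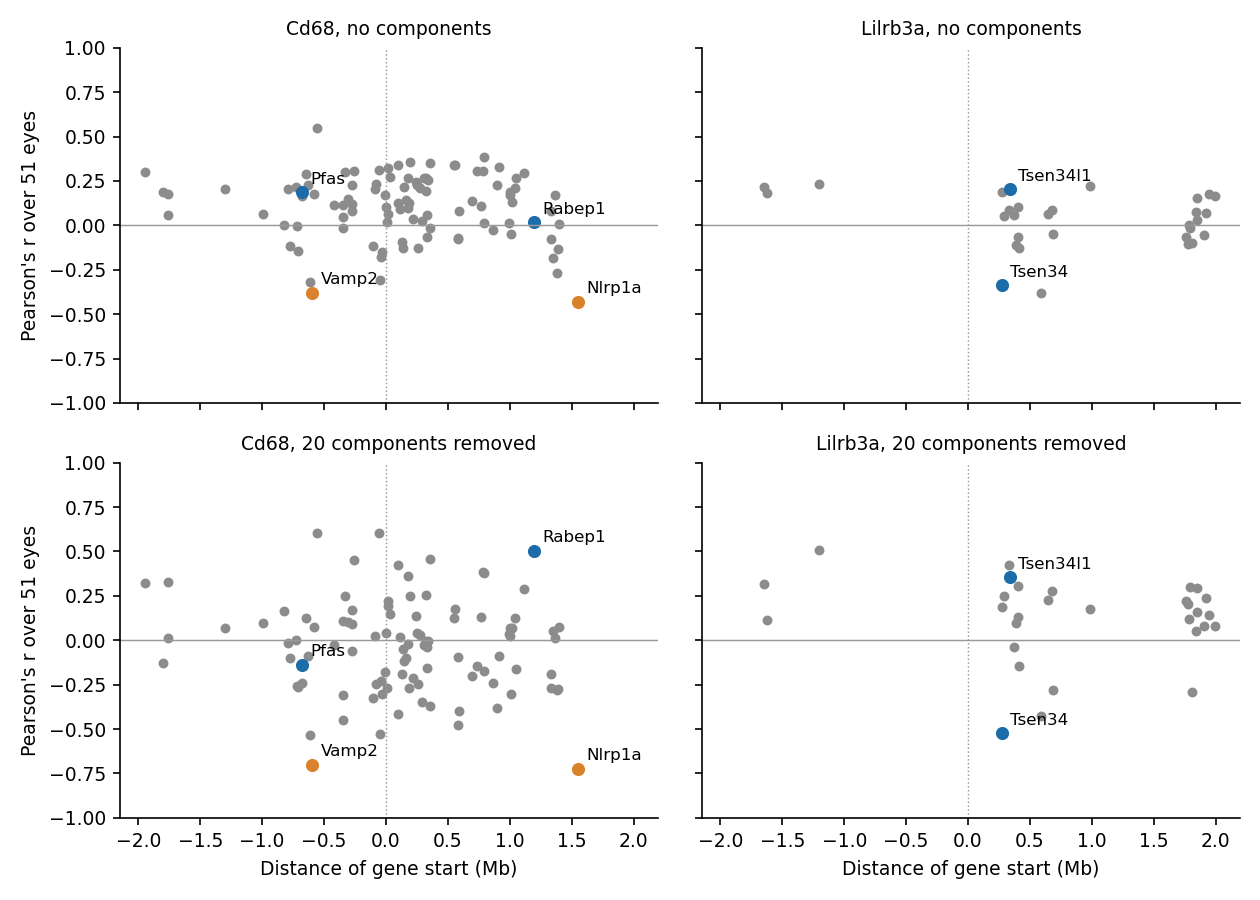
Pearson's r over 51 eyes of each tested gene with Cd68 (left) or Lilrb3a (right) against the distance of its start from that gene in Mb, without components (top) and with 20 components removed (bottom). Grey points are unnamed genes, blue points named genes and orange points the genes with an adjusted p under 0.05 with 20 components, Vamp2 and Nlrp1a at -0.70 and -0.72.

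Beside Lilrb3a the named genes were Tsen34, a subunit of the endonuclease that splices transfer RNA, 270537 bases away, and Tsen34l1, 339639 bases away. Tsen34 had 1.99 CPM in its lowest eye, 10.4 CPM in the next, a median of 23.2 CPM and 39.8 CPM in the highest. Its r with Lilrb3a was -0.34 (permutation p = 0.0128) and its rho -0.42 (permutation p = 0.00219). Without the 2 farthest eyes r was -0.35, within the tag prefixes -0.33 and -0.25, and with 20 components -0.52. Without the eyes at 0 for Lilrb3a it was smaller, at -0.21, and at -0.34 with 20 components. The adjusted p in limma was 0.9999 and, with 20 components, 0.754. Tsen34l1, with a median of 40.6 CPM, had an r of 0.20 (permutation p = 0.148) and a rho of 0.25 (permutation p = 0.0783), and an r of 0.36 with 20 components, but of 0.08 without the eyes at 0 for Lilrb3a. The 2 genes had opposite signs against Lilrb3a. They were also opposed to each other, with r = -0.41. This rested on the 2 eyes farthest from the Tsen34 median, since r was -0.02 without them. After 20 components r was -0.74 with all eyes and -0.70 without the 2 whose Tsen34 was then farthest from its median. The expected counts of both were more than 0.01 from a whole number in all 51 eyes, so their values include divided fragments. With which genes these were shared was not tested. All 3 relations are among the 8 neighbouring pairs examined.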

How the data were processed

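Polyadenylated RNA of whole eyes from 53 HS rats, 1 eye per rat, was sequenced as paired-end reads. The authors aligned them to Rnor_6.0 with STAR, matched samples to DNA genotypes with GATK, removed 2 eyes and deposited RSEM expected counts on a log2 scale, with 1 added first, for 32576 Ensembl genes. Their versions and the annotation release were not given in the sources used here. Because tests were planned on CPM, the log2 was undone. The authors did not scale these expected counts between eyes, so they were scaled here to 1000000 per eye (CPM) and taken as log2(CPM + 1).

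Each gene whose median reached 1 CPM was fitted on the log2 level of Cd68 or Lilrb3a by limma (version 3.58.1, R version 4.3.3), using a variance trend and Benjamini-Hochberg adjustment over all genes tested. Tag prefixes and relabelled eyes were compared the same way over 20190 genes above 0 in any eye. Correlations have permutation p-values from 100000 permutations. Principal components came from those 20190 genes after an inverse normal transform. Only the 778 genes of the study's cis-eQTL list could be named, by start position. Named in the text are the 2 genes, the myeloid list, the 10 named genes of largest and of smallest r, named genes within 1 Mb and the 3 closest of all genes by position. Some named genes that this rule takes are not reported here. Genes farther away (Rabep1, Nlrp1a, Txndc17) were picked as neighbours after their values were seen. The genes and lists were chosen with earlier results of these data known.

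Totals of 9109084 to 42146827 expected counts per eye set the precision. At this depth intervals on low counts are wide. Alternatives changed the scaling, pseudocount, filter, rank use, components and eyes. Scaling and correlations ran in Python 3.11.15 (pandas 2.3.3, numpy 2.4.6, scipy 1.17.1), figures were drawn with matplotlib 3.10.9, and the fit was tested on simulated data. Eyes are separate rats, whose relatedness was not modelled. The 2 removed eyes are not analysed here.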

Additional observations from a re-analysis of the deposited data

How the results depend on the processing

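Of the results that answer a comparison, the r of Cd68 with Lilrb3a changed sign in 1 alternative, to -0.0264 in the 38 eyes where both genes were above 0, and its p stayed far from the threshold in all. The number of genes related to Cd68, 0 as first fitted, became 2 with 20 components, alone or together with median-of-ratios scaling, the tag prefix or ranks of Cd68. It became 1 with 5 components, with 10 components, and with 20 components without the eye at 0 or without the 3 deepest eyes, and it was 0 with 20 components at a pseudocount of 0.1 CPM or over all genes above 0. Fits with 5 or 10 components, those that join 20 components to another choice, and those without the 3 deepest eyes or the eyes with Lilrb3a counts that are not whole were chosen after seeing the data. The other 59 alternative values of these results stayed on their side of the threshold or within the replicate spread. Among named genes, r with Cd68 changed sign for Sh3bgr, from -0.28 to 0.0138 with 20 components and 0.0846 with 5, and for Ndrg1, from -0.26 to 0.0888 with 5 components. The cause was not tested. The mean level of Cd68, back-transformed from log2, ran from 2.57 to 2.98 CPM over the alternatives and that of Lilrb3a from 0.347 to 0.521 CPM. Depth limits Lilrb3a, for which 32 eyes held fewer than 10 counts. No paired analysis was possible because the 51 eyes form 1 group with no shared replicate numbers.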
